A study of Ovis aries with 16 samples.

Results

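ARNT, AHR and EPAS1 are 3 genes for transcription factors of the PAS family, and they were followed here through 8 features of an ovine microarray hybridized with RNA from the hippocampus of fetal sheep. They are 3 of the 1030 gene names on the array. A feature was taken where its gene name or description in the scanner files names ARNT (HIF1B), AHR or EPAS1 (HIF2A), which gave 2 features for ARNT, 2 for AHR and 4 for EPAS1. The genes were chosen by their differences between ketamine and control in normoxic fetuses, so those differences are given as a description with no test.

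The study exposed late-gestation fetal sheep with implanted catheters to transient hypoxia through the ewe's inspired gas, with or without ketamine, an NMDA receptor antagonist used as an anesthetic. The 16 arrays, 1 per fetus, form 4 groups. NC is 3 fetuses kept in normoxia for 30 min without ketamine, and NK is 4 fetuses kept in normoxia after intravenous ketamine at 3 mg/kg. HC is 5 fetuses given 30 min of hypoxia without ketamine, and HK is 4 given ketamine at 3 mg/kg and then 30 min of hypoxia. All of them then spent 23.5 h in normoxia, and the hippocampus was collected 24 h after the stimulus began, so the values describe late recovery and not the hypoxia itself. In the paper normoxia or hypoxia was assigned by pregnancy, and most fetuses were twins. The labels do not say which of them shared a ewe, so the tests treat the fetuses as independent. Replicates 1 and 2 of each group lay on 1 slide and the others on a second, with 8 arrays each.

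PAS factors bind DNA as pairs. ARNT is the common partner: it is made regardless of oxygen and joins either AHR, which is activated by ligands such as aryl hydrocarbons and tryptophan metabolites, or an oxygen-regulated alpha subunit, HIF1A or EPAS1. When oxygen is ample, prolyl hydroxylases mark the alpha subunits for breakdown by the VHL ligase, so the pathway is governed largely at the protein level and a transcript reports only part of it. In brain, EPAS1 is known mainly from endothelium and glia, HIF1A from most cell types, and ARNT has a close relative, ARNT2, that is prominent in neurons.

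A reporter below means 1 feature, a DNA strand of 60 bases, and reporters are numbered within each gene. Both ARNT reporters, EPAS1-1 with EPAS1-2, and EPAS1-3 with EPAS1-4 are pairs taken from the same stretch of a partial coding sequence, 1 base apart. Their sequences are shown because each pair should measure the same RNA, so the difference between its members shows how exactly this array reads these genes. Capitals mark the base of each that its partner lacks.
ARNT-1: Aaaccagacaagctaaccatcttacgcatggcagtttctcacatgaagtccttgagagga
ARNT-2: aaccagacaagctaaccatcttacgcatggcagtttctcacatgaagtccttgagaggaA
EPAS1-1: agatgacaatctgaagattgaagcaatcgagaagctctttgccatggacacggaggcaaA
EPAS1-2: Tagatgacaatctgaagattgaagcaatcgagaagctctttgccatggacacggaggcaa
EPAS1-3: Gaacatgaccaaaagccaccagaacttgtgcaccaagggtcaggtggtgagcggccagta
EPAS1-4: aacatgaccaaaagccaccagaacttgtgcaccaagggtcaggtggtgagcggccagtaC
AHR-1: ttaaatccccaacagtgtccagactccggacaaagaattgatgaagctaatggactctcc

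Members of a pair share a run of 59 bases, and reporters of different stretches share no run of 8 bases or more. Against the 15000 other features of the array, the longest run any of the 8 shares is 12 to 16 bases. The second AHR reporter comes from an assembled transcript that the array names only by its likeness to a whale AHR protein, so its identity rests on that description. Guanine and cytosine make up 45% of the ARNT, AHR-1, EPAS1-1 and EPAS1-2 sequences, 55% of EPAS1-3 and EPAS1-4, and 35% of AHR-2.

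All 8 reporters are dim. Their background-subtracted intensities ran from 7.57 to 50.8 over all arrays, apart from 1 ARNT-2 spot (HC1, 81.14) that the software marked as an outlier and that was left out of all levels, where the 75th percentile of an array lay between 881.5 and 1199. Between 7.66% and 17.1% of the 12543 probes tested were dimmer on average. The scanner software marks a spot as well above background when it clears the background by 13 of its standard deviations. ARNT-1, AHR-1, EPAS1-1 and EPAS1-2 carried that mark on 16 of 16 arrays, EPAS1-4 on 15, ARNT-2 on 14, the outlier on HC1 included, and EPAS1-3 on 13. AHR-2 carried it on 7 of 16: 1 of 3 NC, 2 of 4 NK, 1 of 5 HC and 3 of 4 HK. All 8 passed the filter for testing, which was the mark on at least 3 arrays. EPAS1-3 is the reporter for which the mark depended most on group among the EPAS1 reporters, with 1 of 3 NC arrays marked against 4 of 4 NK, 4 of 5 HC and 4 of 4 HK.

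Levels are given from here on as log2 intensity relative to the 75th percentile of the array, so a level of −5 lies 5 doublings below it. Because sequences differ in how brightly they hybridize, levels are compared between groups and not between genes. Differences between groups come from limma, fitted to all probes with the 4 groups, and are log2 differences with their standard error (SE). The criterion is limma's unadjusted p under 0.05, and the adjusted p is Benjamini-Hochberg over all 12543 probes.

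**Figure D1:**
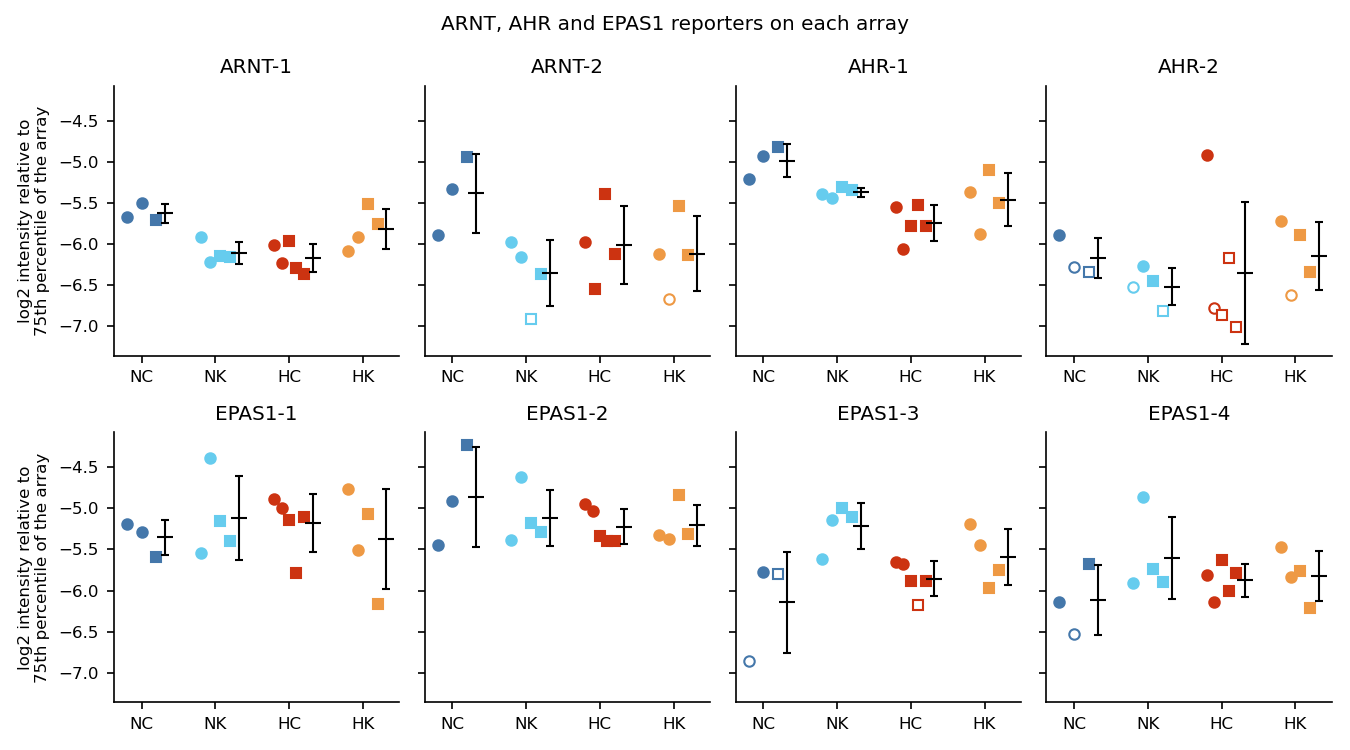
Level of each reporter on each array (log2 intensity relative to the array's 75th percentile), by group. Circles are slide 1 and squares slide 2, open symbols are spots not marked well above background, and bars are the mean and SD of the group. All ARNT-1 and AHR-1 levels of HC lie under those of NC, while ARNT-2, AHR-2 and the EPAS1 reporters overlap between HC and NC. Of all probes, 7.81% had HC and NC groups that did not overlap, and the NC arrays helped to choose the genes. With normexp the means of ARNT-1 and AHR-1 were higher in HC than in NC.

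ARNT, the shared partner, is described first. The ARNT-1 level was −5.67, −5.50 and −5.71 in NC. In NK it was −5.92, −6.21, −6.14 and −6.16, and in HC it was −6.01, −6.23, −5.96, −6.29 and −6.36. In HK it was −6.08, −5.91, −5.51 and −5.76. Every NK and HC array lay below every NC array, and the HK arrays spread over the range of the other groups. The order of the means was NC, HK, NK and HC, at −5.63 ± 0.11 (SD, n = 3), −5.82 ± 0.24 (n = 4), −6.11 ± 0.13 (n = 4) and −6.17 ± 0.18 (n = 5). NK and HC did not differ beyond their spread, and the gap of 0.19 between NC and HK was about as large as their pooled SD of 0.19.

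The comparison of HK with HC asks what ketamine changed in fetuses that were hypoxic, and it uses none of the arrays by which the genes were chosen. In it, 594 probes (4.74%) met the criterion where 627 would by chance alone. After adjustment limma left 0, or 2 with replicate number as a block and 1 without HC5. The unadjusted count was 1071 without HC1, 1055 with replicate number as a block and 964 with array weights. So whether it exceeds chance depends on these choices. Of the 8 reporters, 1 met the criterion: ARNT-1 was higher in HK by 0.35 (SE 0.12, adjusted p = 0.969). The 2 groups overlapped, as HK1 at −6.08 lies inside the HC range, and the exact permutation test, two-sided over 126 arrangements, gave p = 0.0556. The difference was 0.12 on slide 1 and 0.56 on slide 2. Without HK3, the highest ARNT-1 array of HK, it was 0.25 and no longer met the criterion. The call was also lost with normexp background correction (0.15), with the deposited values (0.0073) and with a trended prior (0.35). Fewer cells of a type and less RNA per cell cannot be told apart in these bulk samples, here or in any later comparison.

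HC against NC asks what hypoxia left 24 h later without ketamine. It shares the NC arrays with the comparison that chose the genes, so a gene chosen for high NC levels tends to be low in HC minus NC as well. ARNT-1 was lower in HC by a log2 difference of −0.54 (SE 0.13, adjusted p = 0.181), with all 5 HC arrays under all 3 NC arrays. The exact permutation p was 0.0179, which is the smallest that 5 against 3 arrays can give. The difference was −0.54 on slide 1 and −0.49 on slide 2, where NC has 1 array. With the deposited values it was −0.024 and missed the criterion, and with normexp the sign was reversed (0.94).

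The same question under ketamine, HK against NK, shares the NK arrays with the choosing comparison. ARNT-1 was higher in HK by 0.29 (SE 0.13, adjusted p = 0.939), with an exact permutation p of 0.0571 over 70 arrangements. This call depended on single arrays: it was lost without NC1, NK2, NK3, NK4, HK3 or HK4, with differences of 0.19 to 0.29. On slide 1 the difference was 0.068 and on slide 2 it was 0.52. The call was also lost with normexp (0.27, or 0.11 with limited local background), quantile normalization (0.25) and the deposited values (0.010). The difference stayed 0.29 but missed the criterion with replicate number as a block, with a trended prior and with only the groups compared. Averaged over ketamine, hypoxia minus normoxia was −0.13 for ARNT-1 (SE 0.094), with a 95% interval from −0.33 to 0.075.

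ARNT-2, which shares all but 1 base with ARNT-1, met the criterion in none of the 4 comparisons tested. Its levels ran from −5.89 to −4.94 in NC, −6.91 to −5.98 in NK, −6.55 to −5.40 in HC and −6.67 to −5.54 in HK. The spot on HC1 was marked as an outlier by the software, sits in a local background of 65531 and was left out, so 4 HC arrays count for ARNT-2. NC was the highest group for ARNT-2 too, but the NC arrays helped to choose the genes, so this adds no separate result. HC minus NC was −0.62 (SE 0.32, 95% interval −1.32 to 0.073). That difference met the criterion without NC1, at −0.88, or without HC4, at −0.83. For HK minus HC, the comparison in which ARNT-1 rose, ARNT-2 gave −0.11 (SE 0.30), an interval from −0.75 to 0.54 that includes the ARNT-1 value.

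AHR, the ligand-activated factor, gave the lowest p of the 8 reporters in the comparisons tested, through AHR-1. Its level was −5.21, −4.93 and −4.82 in NC and −5.39, −5.44, −5.31 and −5.34 in NK. In HC it was −5.55, −6.07, −5.78, −5.53 and −5.78, and in HK it was −5.36, −5.87, −5.10 and −5.50. Every HC array lay below every NC and every NK array, while HK overlapped all the other groups. The order of the means was NC at −4.98 ± 0.20 (SD, n = 3), NK at −5.37 ± 0.056 (n = 4), HK at −5.46 ± 0.32 (n = 4) and HC at −5.74 ± 0.22 (n = 5), and NK and HK did not differ beyond their spread.

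Averaging the hypoxia difference over ketamine uses the sum of NC and NK, while the choice of genes used the difference between them. The result is nearly free of the choice only for a reporter that varies alike in NC and NK. For AHR-1 the SD was 0.20 in NC and 0.056 in NK, so its averaged difference is not free of the choice. In the averaged comparison 1561 probes (12.4%) met the criterion, and 13 did after limma's adjustment. The adjusted count ran from 1 without NC3 to 64 without HC5 when single arrays were left out. It was 0 with normexp, 85 with replicate number as a block and 88 with array weights. Of the 8 reporters, 1 met the criterion, a share of the 8 that is close to the background. AHR-1 was lower in hypoxia by a log2 difference of −0.42 (SE 0.11, adjusted p = 0.152), and the exact permutation p within ketamine strata was 0.00918 over 3920 arrangements. The difference was −0.47 on slide 1 and −0.43 on slide 2. It met the criterion whichever array was left out, but not with the deposited values (−0.030) or with normexp background correction and limited local background (−0.14), and with normexp alone the sign was reversed (0.52).

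In HC minus NC, 2 probes passed the adjustment, a count that ran from 0 without NC1 to 41 without HC5 when single arrays were left out. It was 15 with replicate number as a block and 153 with array weights. The unadjusted criterion was met by 1356 probes (10.8%), and 980 (7.81%) had groups that did not overlap. The reporters gave 2 of 8 on each count, ARNT-1 and AHR-1, both lower, but the NC arrays helped to choose these genes, so the counts cannot be weighed against those shares. AHR-1 differed by −0.76 (SE 0.16, adjusted p = 0.14), with an exact permutation p of 0.0179, again the smallest possible. It was −0.74 on slide 1 and −0.88 on slide 2, and with normexp the sign was reversed (0.87). Under ketamine, where 660 probes (5.26%) met the criterion and 1 of 8 reporters did, AHR-1 in HK minus NK was −0.090 (SE 0.16, 95% interval −0.43 to 0.25). Whether the hypoxia difference depends on ketamine was not tested, since that test would use the difference that chose the genes. In HK minus HC, AHR-1 was 0.28 higher (SE 0.15, interval −0.036 to 0.60) and did not meet the criterion, but it did without HK2, at 0.42, with slide as a block, at 0.30, and with array weights, at 0.39.

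AHR-2 ranged from −6.34 to −5.89 in NC, −6.82 to −6.27 in NK, −7.01 to −4.92 in HC and −6.62 to −5.72 in HK, and no neighbours in the order of its group means, HK, NC, HC and NK, differed beyond their spread. HC1 at −4.92 was the brightest AHR-2 spot and the only HC spot of it well above background. Without HC1, AHR-2 met the criterion in HC minus NC at −0.53 and in HK minus HC at 0.56. With all arrays these differences were −0.18 (SE 0.38) and 0.21 (SE 0.35). Most AHR-2 spots are near background, which limits what it can show.

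EPAS1, the alpha subunit also called HIF2A, met the criterion through none of its 4 reporters in the 4 comparisons tested. Averaged over ketamine, hypoxia minus normoxia was −0.042 for EPAS1-1 (95% interval −0.51 to 0.42), −0.23 for EPAS1-2 (−0.59 to 0.14), −0.045 for EPAS1-3 (−0.41 to 0.32) and 0.013 for EPAS1-4 (−0.36 to 0.38). For HK minus HC the differences ran from −0.20 for EPAS1-1 to 0.27 for EPAS1-3. The widest of their intervals, that of EPAS1-1, spans −0.81 to 0.42 and so holds the 0.35 of ARNT-1. On slides 1 and 2 the averaged difference was 0.063 and −0.046 for EPAS1-1, −0.077 and −0.50 for EPAS1-2, 0.35 and −0.50 for EPAS1-3, and 0.047 and −0.15 for EPAS1-4. All 4 were lower on slide 2, which has 1 NC array.

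The order of the group means was not shared between EPAS1 reporters. It was NK, HC, NC and HK for EPAS1-1, and NC, NK, HK and HC for EPAS1-2, which differs from it by 1 base. EPAS1-3 and EPAS1-4 shared the order NK, HK, HC and NC. Only NK against HK for EPAS1-3 was a gap between neighbours larger than the spread, 0.38 against a pooled SD of 0.31. It did not meet the criterion, and the NK arrays helped to choose the genes. As HK minus NK it was 0.061 on slide 1 and −0.81 on slide 2. EPAS1-2 met the criterion when NC1 was left out, at −0.65 in HC minus NC and −0.37 averaged over ketamine.

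Single arrays stood high or low by reporter. The EPAS1-1 levels of NC were −5.19, −5.28 and −5.59, and those of NK were −5.54, −4.39, −5.15 and −5.40. In HC they were −4.88, −4.99, −5.14, −5.78 and −5.10, and in HK −4.77, −5.50, −5.07 and −6.16. NK2 was the highest of the 16 arrays for EPAS1-1 and EPAS1-4, and second to NC3 for EPAS1-2. EPAS1-2 ran from −5.44 to −4.23 in NC, −5.39 to −4.61 in NK, −5.40 to −4.95 in HC and −5.37 to −4.84 in HK.

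**Figure D2:**
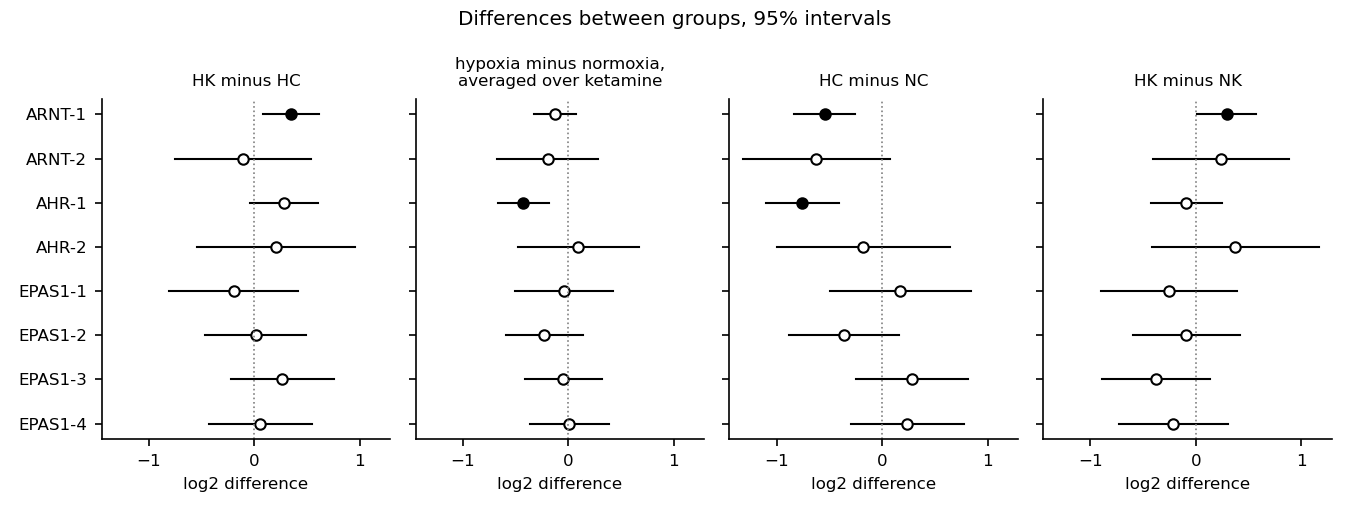
Log2 difference of each reporter in the 4 comparisons tested, with 95% intervals from limma. Filled points meet the criterion, an unadjusted p under 0.05: ARNT-1 in HK minus HC, HC minus NC and HK minus NK, and AHR-1 in HC minus NC and averaged over ketamine. With normexp, HC minus NC of both and the averaged AHR-1 difference were above 0.

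Taken over the 8 reporters and 4 comparisons, 3 of 32 exact permutation tests gave p under 0.05, of which 2 were in HC minus NC and so rest on NC arrays that helped to choose the genes. Exact tests were made for the reporters alone, so no share over all probes stands beside them. By limma, 0 reporters passed the adjustment in any comparison. At the unadjusted criterion the counts were 1, 1, 2 and 1 of 8 in HK minus HC, averaged, HC minus NC and HK minus NK. The shares of all probes were 4.74%, 12.4%, 10.8% and 5.26%. HC minus NC and HK minus NK share arrays with the comparison that chose the genes, and the averaged comparison contains both. In HK minus HC, 126 probes (1%) had groups that did not overlap and in HK minus NK 417 did (3.32%), with 0 of 8 reporters among them in each.

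The values that chose the genes, NK minus NC, follow as a description. ARNT-1 differed by −0.48 and ARNT-2 by −0.97, AHR-1 by −0.38 and AHR-2 by −0.34. EPAS1-1 differed by 0.24, EPAS1-2 by −0.26, EPAS1-3 by 0.93 and EPAS1-4 by 0.51. Thus 5 reporters were lower and 3 higher with ketamine, and the EPAS1 reporters did not share a sign. Over the whole array, 1.78% of probes met the criterion in NK minus NC and 3.52% had groups that did not overlap. The 8 reporters are not set against these shares, because they were chosen by this comparison. EPAS1-3 was −6.85, −5.77 and −5.80 in NC and −5.62, −5.14, −4.99 and −5.11 in NK, so the NC array at −6.85, which was not above background, adds to the gap.

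Reporters of a gene were compared with each other over the arrays, which the choice of features allows for 8 pairs. Pearson's r ran from 0.165 to 0.609 with a median of 0.327. Both ARNT reporters had r = 0.43 (permutation p = 0.11, adjusted over the 8 pairs 0.293) and Spearman's rho = 0.346 (permutation p = 0.208, adjusted 0.358) over 15 arrays, and r fell to 0.21 without NC2 and HK3. EPAS1-1 and EPAS1-2 had r = 0.256 (p = 0.327, adjusted 0.374) and rho = 0.282 (p = 0.29, adjusted 0.358), and r was −0.0392 without HK4 and NK2. EPAS1-3 and EPAS1-4 had r = 0.461 (p = 0.0766, adjusted 0.293) and rho = 0.274 (p = 0.302, adjusted 0.358), and r was 0.463 without NC1 and NK3. So none of the pairs that differ by 1 base had a correlation past p of 0.05. These r values include the group differences that chose the genes. With group means removed r was 0.142 for the ARNT pair, 0.328 for EPAS1-1 with EPAS1-2 and 0.199 for EPAS1-3 with EPAS1-4. With the deposited values it was 0.171, 0.150 and 0.440, and with quantile normalization 0.416, 0.111 and 0.458. With normexp it was 0.993, 0.993 and 0.996, but all 8 pairs then gave 0.993 to 0.998, those from different stretches included. So the r with normexp does not set pairs 1 base apart from others.

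AHR-1 and AHR-2, from different stretches, had r = 0.339 (permutation p = 0.2, adjusted 0.361) and rho = 0.424 (p = 0.103, adjusted 0.358), with r = 0.33 without HC2 and NC3. The r of this pair was 0.482 with group means removed, −0.233 with the deposited values and 0.997 with normexp. The only pair with p under 0.05 was EPAS1-1 with EPAS1-4, at r = 0.609 (permutation p = 0.0153, adjusted 0.123) and rho = 0.518 (p = 0.0413, adjusted 0.33). It rests on 2 arrays, since r was 0.24 without HK4 and NK2, while it was 0.624 with group means removed and 0.632 with the deposited values. The deposited values also gave r = 0.689 for EPAS1-2 with EPAS1-3, where 0.165 was found here. Within slides r was 0.711 and 0.824 for EPAS1-1 with EPAS1-4, on 8 arrays each. For the ARNT pair the values within slides were 0.556 and 0.389, for EPAS1-1 with EPAS1-2 they were 0.68 and 0.0116, and for EPAS1-3 with EPAS1-4 they were 0.602 and 0.0906.

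The array holds 189 pairs of features that are 1 base apart, which shows what such pairs give elsewhere. Their median r over the arrays was 0.893. In the 142 pairs brighter than the reporters it was 0.936, and in the 21 pairs within the reporters' range of levels, which include the 3 pairs here, it was 0.461. That median is the r of the EPAS1-3 and EPAS1-4 pair itself. Of the 21 pairs, 28.6% had a lower r than the ARNT pair, 47.6% a lower r than EPAS1-3 with EPAS1-4, and 9.52% a lower r than EPAS1-1 with EPAS1-2. The last pair was thus among the lowest at its level, and pairs at that level were less alike than brighter ones.

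**Figure D3:**
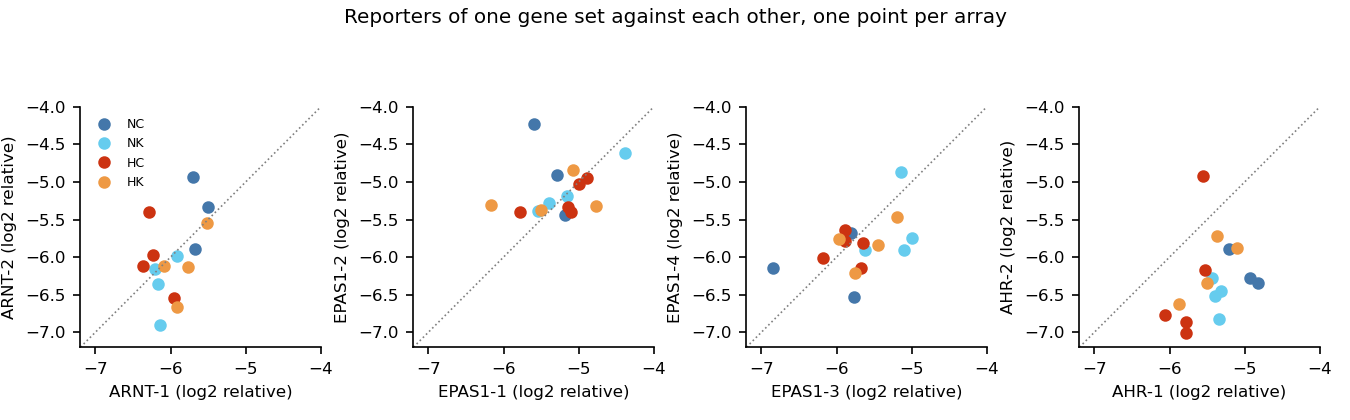
Reporters of a gene set against each other, 1 point per array and colored by group (log2 intensity relative to the array's 75th percentile). The dotted line marks equal levels. In the first 3 panels the reporters differ by 1 base, with r of 0.43, 0.256 and 0.461, and in the last they come from different stretches of AHR.

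Other PAS factors on the array were taken from a list of 20 genes, of which 5 had a probe and were tested: HIF1A, HIF3A, ARNT2, CLOCK and PER2. HIF1A, the other oxygen-regulated alpha subunit, was lower in HK than in HC by a log2 difference of −0.44 (SE 0.17, adjusted p = 0.969). Its levels were −2.40, −2.42, −2.38, −2.55 and −3.11 in HC and −2.90, −3.07, −2.86 and −3.21 in HK, so HC5 lay inside the HK range and the other HC arrays above it. Without HK4 the difference was −0.38 and missed the criterion. A second HIF1A reporter, 1 of the 2 on the array, gave −0.30 (SE 0.17) and did not meet it. CLOCK, a circadian PAS factor, was lower in HC than NC by −0.51 (SE 0.23, adjusted p = 0.443). The call was lost when any of 9 arrays was left out, at −0.52 to −0.38, and in 12 alternatives in all. With normexp the sign was reversed (0.70).

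ARNT2, the relative of ARNT, gave 0.20 (SE 0.20) and 0.22 (SE 0.17) in HK minus HC through its 2 reporters and −0.16 (SE 0.22) and −0.35 (SE 0.19) in HC minus NC. HIF3A, another alpha subunit, gave 0.66 (SE 0.50) and 0.89 (SE 0.42) in HC minus NC. None of these met the criterion. Over the 5 genes, HK minus HC and HC minus NC each had 1 past the criterion, lower, and the other comparisons had 0. Of all probes, 4.74% met it in HK minus HC and 10.8% in HC minus NC. The median of the list was 0.063 in HK minus HC, 0.049 averaged over ketamine, 0.12 in HC minus NC and −0.027 in HK minus NK. The medians over all probes tested were 0.021, −0.023, −0.027 and −0.010 in the same order.

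Regulators of the alpha subunits and AHR, such as prolyl hydroxylases, chaperones and coactivators, were mostly absent: 3 of 27 had a probe. CITED2, a hypoxia-induced protein that competes with HIF for the coactivators p300 and CBP, met the criterion. It was higher in hypoxia by 0.40 averaged over ketamine (SE 0.13, adjusted p = 0.24) and by 0.46 in HK minus NK (SE 0.19, adjusted p = 0.9), the latter lost without NK1, NK4, HK1 or HK2 at 0.38 to 0.40. CITED2 levels were −2.89, −3.30 and −2.60 in NC and −3.02, −2.72, −2.48 and −2.97 in NK. They were −2.39, −2.51, −2.43, −2.75 and −2.91 in HC and −2.10, −2.09, −2.60 and −2.56 in HK. The groups overlap, with the highest levels in HK1 and HK2. The other comparisons had 0 of 3 past the criterion, and the list medians were 0.067 in HK minus HC, 0.021 averaged over ketamine, −0.028 in HC minus NC and 0.071 in HK minus NK.

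Known HIF targets, genes that HIF1A or EPAS1 with ARNT can switch on, were read from a list of 62, of which 25 were on the array and 24 tested. Averaged over ketamine, 5 were higher in hypoxia and 1 lower, beside the 12.4% of all probes, and 12 of 24 had a difference above 0. The list median was −0.0049, where that of all probes was −0.023. So a few targets differed at 24 h while the list as a whole was centred where the array was. In HC minus NC 2 were higher and 1 lower, with a list median of 0.027. In HK minus NK 2 were higher and 0 lower, with a median of −0.036. In HK minus HC 0 were higher and 1 lower, HIF1A, with a median of −0.038. The shares of all probes past the criterion were 10.8%, 5.26% and 4.74% in the same order.

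IGFBP3, an insulin-like growth factor binding protein, had the largest difference of the list averaged over ketamine and in HC minus NC. Its level was −4.81, −5.01 and −4.60 in NC and −5.09, −4.41, −4.47 and −4.86 in NK. It was −3.38, −1.95, −1.19, −2.82 and −4.34 in HC and −3.13, −2.66, −4.39 and −3.86 in HK. Every hypoxic array was above every normoxic one. The difference averaged over ketamine was 1.64 (SE 0.39, adjusted p = 0.116), with 2.07 (SE 0.56, adjusted p = 0.19) in HC minus NC and 1.20 (SE 0.54, adjusted p = 0.939) in HK minus NK, the last lost without any of 9 arrays at 0.92 to 1.28.

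SLC2A3 encodes the neuronal glucose transporter GLUT3. Its level was 3.38, 3.14 and 3.44 in NC, 3.28, 4.30, 3.63 and 3.45 in NK, 5.11, 4.57, 4.55, 4.39 and 3.61 in HC and 4.25, 4.19, 3.58 and 3.72 in HK. All HC arrays exceeded all NC arrays, HC5 by the least, and HK overlapped NK. The difference averaged over ketamine was 0.70 (SE 0.20, adjusted p = 0.183), and in HC minus NC it was 1.13 (SE 0.29, adjusted p = 0.19).

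IGFBP1, a close relative of IGFBP3, was near background in normoxia. It was well above background on 1 of 3 NC, 0 of 4 NK, 5 of 5 HC and 2 of 4 HK arrays, and the HK level was at least 1.1-fold higher than the NK level when NK was raised to the lowest signal marked above background on each array. The fitted difference of 1.35 averaged over ketamine (SE 0.43, adjusted p = 0.212) rests on spots near background and is no bound.

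The other targets past the criterion averaged over ketamine were the vessel genes EDN1 (0.76, SE 0.34), ANGPT2 (0.54, SE 0.23) and KDR, which was lower (−0.42, SE 0.15). EDN1 lost the call without any of 12 arrays, at 0.64 to 0.78, and ANGPT2 without any of 8, at 0.44 to 0.55. The glycolytic gene HK1 was lower in HC than NC by −0.61 (SE 0.21, adjusted p = 0.294). VEGFA, LDHA, EPOR, GAPDH and ALDOA, among the targets best known for responding to HIF, did not meet the criterion in the averaged comparison.

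**Figure D4:**
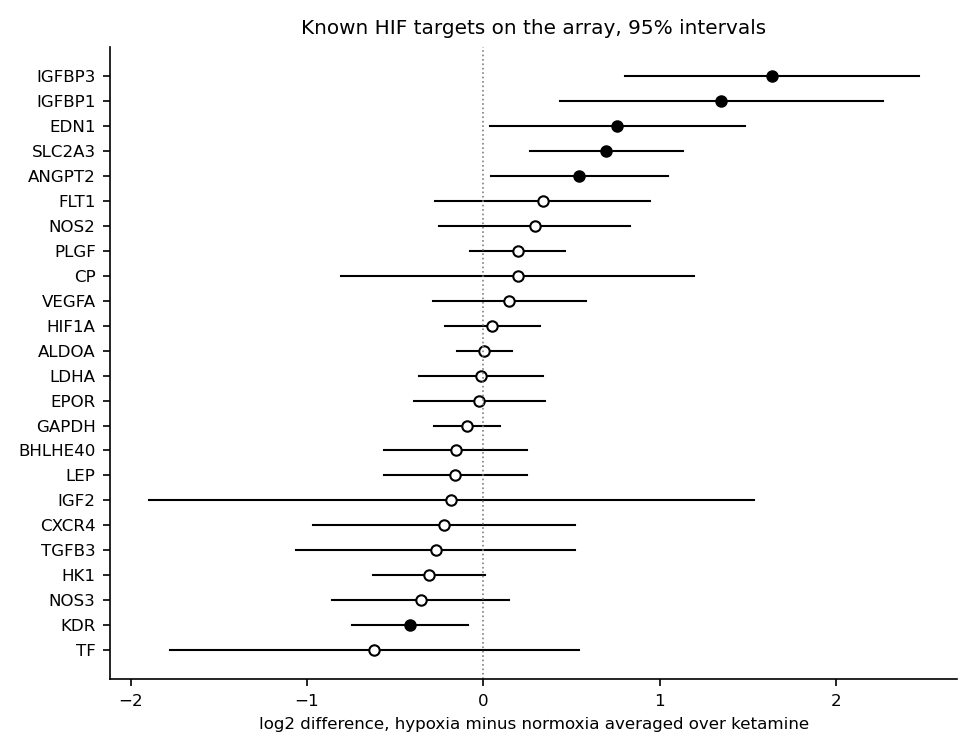
Log2 difference of the 24 HIF targets tested, hypoxia minus normoxia averaged over ketamine, with 95% intervals. Filled points meet the criterion: 5 were higher and 1, KDR, was lower, and KDR was higher (0.54) with a different background correction.

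AHR targets were thin on this array, with 5 of 23 tested. CYP1A1, the usual mark of AHR activity, was well above background on 1 of 3 NC, 2 of 4 NK, 3 of 5 HC and 2 of 4 HK arrays. Its difference averaged over ketamine was 0.27 (SE 0.30, 95% interval −0.37 to 0.91), from spots that are mostly near background. Averaged over ketamine, 1 was higher and 1 lower, beside the 12.4% of all probes, with a list median of −0.15. IL10, an anti-inflammatory cytokine, was higher by 0.60 (SE 0.26, adjusted p = 0.366), a call lost without any of 10 arrays at 0.50 to 0.62. PTGS2, the inducible cyclooxygenase, was lower by a log2 difference of −1.40 (SE 0.63, adjusted p = 0.375), lost without any of 9 arrays at −1.43 to −1.23. Its level was −1.83 on HC5, with the other HC arrays between 1.04 and 3.52. In the other comparisons 0 of 5 met the criterion, and the list medians were −0.044 in HK minus HC, −0.28 in HC minus NC and −0.020 in HK minus NK.

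Markers of cell types were read as lists, since the tissue is a mixture. None of the markers tested passed limma's adjustment in any comparison. Hippocampal neurons had 7 of 21 markers on the array and astrocytes 3 of 7, all well above background on 16 of 16 arrays, as the label of hippocampus calls for. In HC minus NC, where 10.8% of all probes met the criterion, 4 of 7 neuronal markers were lower. These were GRIN1 (−1.02), GRIA1 (−0.65), GRIA2 (−0.42) and GRIA4 (−0.35). The neuronal list, of which SST was the brightest, had a median of −0.65. Its summed intensity, in multiples of the array's 75th percentile, was 42.6, 38.1 and 44.8 in NC, 44.5, 36.4, 49.8 and 37.0 in NK, 49.8, 34.5, 31.8, 47.6 and 9.90 in HC, and 47.9, 45.3, 51.4 and 48.0 in HK. HC5 thus stood far below the others. Without HC5, HC minus NC was −0.50 for ARNT-1 and −0.75 for AHR-1, each within 0.05 of the value with it. Leaving out HC5 does not remove the lower neuronal markers. Every HC array lay below every NC array for GRIN1, GRIA2 and GRIA4, while the other neuronal markers overlapped between HC and NC.

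GRIA4, alone of the 7 neuronal markers, also met the criterion in HK minus HC (0.37, SE 0.13) and in HK minus NK (0.31, SE 0.14). Of all probes, 4.74% and 5.26% did in these comparisons, the ones in which ARNT-1 was higher. The list as a whole had 7 of 7 above 0 in HK minus HC, with a median of 0.36, but 3 of 7 in HK minus NK, with a median of −0.15. The part that neuronal content plays in the ARNT-1 and AHR-1 differences was not tested. In the averaged comparison, where 12.4% of all probes met the criterion, 3 of 7 neuronal markers were lower, with a list median of −0.28.

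Of astrocyte markers 1 of 3 was higher in HC minus NC, GJA1 (0.46), with AQP4 the brightest and sums of 57.8 to 67.6 in NC, 50.2 to 65.1 in NK, 56.9 to 78.1 in HC and 57.1 to 70.8 in HK. In HC minus NC, where 10.8% of all probes met the criterion, 2 of 5 microglia and macrophage markers were higher, FCER1G (0.72) and FCGR1A (1.13). Averaged over ketamine, where 12.4% of all probes met it, ITGAM (0.59) and FCER1G (0.50) were higher. In HK minus HC, where 4.74% of all probes met the criterion, 1 of 5 did: FCGR1A was lower in HK (−0.996, adjusted p = 0.969). The sums of the microglia and macrophage markers, led by FCER1G, were 0.427 to 0.523 in NC and 0.461 to 0.525 in NK. They were 0.472 to 1.38 in HC and 0.478 to 0.833 in HK. FCGR2B and CYBB were well above background on only 4 and 6 of 16 arrays. The part of these cells in the lower AHR-1 and ARNT-1 levels of HC was not tested either.

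Endothelium is a main site of EPAS1 expression, and KDR, FLT1, EDN1 and NOS3 are on both its list and that of the HIF targets. Of its 7 markers tested, 2 were higher in HC minus NC, SELP (4.15) and ICAM1 (2.74), while PECAM1, the brightest, did not meet the criterion, nor did KDR (−0.46, with groups that did not overlap) or NOS3 (−0.48). The list median was 0.10, and 10.8% of all probes met the criterion in HC minus NC. The summed level was 1.32 to 1.5 in NC, 1.07 to 1.75 in NK, 1.42 to 4.55 in HC and 1.62 to 2.40 in HK. The part of endothelium in the EPAS1 levels was not tested.

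Choroid plexus markers varied most between arrays of a group. Their sums, with TTR the brightest, reached 85.4 on NC2, 71.6 on NK2, 78.1 on HC5 and 50.9 on HK2, against 0.930 on HC1, and 0 of 4 met the criterion in the 4 comparisons. On NK2 the EPAS1-1, EPAS1-2 and EPAS1-4 levels were −4.39, −4.61 and −4.86. On NC2, which had the highest sum, they were −5.28, −4.91 and −6.53, the last from a spot not marked well above background. AQP1 was well above background on 4 of 16 arrays. For red blood cells the only gene on the array was HBB, at 5.97 to 34.2, and 0 of 7 oligodendrocyte markers had a probe, so that cell type could not be read. The part of choroid plexus in the EPAS1 levels was not tested.

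For each gene's brightest reporter, the named probes with the most similar level over the 16 arrays were sought among about 1080 candidates well above background on all arrays. They are extremes of that search and are given without a p. ARNT-1 was closest to BAX (r = 0.728, rho = 0.638), PSIP1 (r = 0.718, rho = 0.671) and TRAF3 (r = 0.713, rho = 0.756), and without NC2 and HK3 these r values were 0.740, 0.578 and 0.617. AHR-1 was closest to ADRB1 (r = 0.853, rho = 0.865), LOC443008 (r = 0.847, rho = 0.868) and LOC100037685 (r = 0.835, rho = 0.838), with 0.750, 0.837 and 0.824 without HC2 and NC3. EPAS1-2 was closest to IGF1 (r = 0.665, rho = 0.65), BMP7 (r = 0.657, rho = 0.521) and TIMP2 (r = 0.650, rho = 0.776), with 0.556, 0.267 and 0.668 without NC3 and NK2, so that of BMP7 rests on those arrays. Within slides r ran from 0.452, for IGF1 on slide 1, to 0.937, for LOC443008 on slide 1.

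ADRB1, the beta-1 adrenergic receptor and the gene closest to AHR-1, had levels of −4.28 ± 0.16 (SD, n = 3) in NC, −4.56 ± 0.36 (n = 4) in NK, −4.96 ± 0.20 (n = 5) in HC and −4.56 ± 0.29 (n = 4) in HK. Since it was found by its likeness to AHR-1 on the same arrays, these levels add nothing to those of AHR-1.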

How the data were processed

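The authors deposited, per the file headers, a background-subtracted and detrended intensity (signal) for each spot, not normalized between arrays, and a table of log2 values. The deposited log2 values share their quantiles over the arrays and were raised by an offset at low signal, so differences between dim spots are small in them. The labels name limma and R 2.15.1.

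Here log2 intensity minus the 75th percentile of each array was used. Spots marked as outliers were left out and spots of a probe averaged, and limma 3.58.1 in R 4.3.3 tested 12543 of 15008 probes, those the scanner software marked well above background on 3 or more of the 16 arrays. RefSeq (ARS-UI_Ramb_v3.0) named 703 probes by accession, and 1657 had a name in all. The share of marked spots per array ran from 76.7% to 82.6%. Single reporters were compared by exact permutation and correlations by 100000 resamples. The adjustment planned for the 32 exact tests alone was left out, a departure from the plan. The scripts were tested on simulated data.

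The members and lists were chosen with earlier results of these data known. Named list genes are those past the criterion, by their brightest probe (10 at most per list). The most similar genes are the 3 of highest r per gene. The values were also recomputed after normexp correction (offset 50), with and without local background limited to its 99th percentile, and with quantile and median scaling, the deposited values, no filter and a filter on all 16 arrays, slide or replicate number as a block, array weights, another prior, only the groups compared, and leaving out each array. Replicate numbers come from the labels and the paper ties them to nothing. With normoxia or hypoxia assigned by pregnancy, NC and NK fetuses, or HC and HK fetuses, could share a ewe. Deviations of same-numbered arrays had r of 0.205 to 0.375 in NC and NK. In HC and HK r was 0.393, 0.305, 0.0726 and 0.124. It was 0.0412 to 0.13 in NC and HC and 0.0313 to 0.259 in NK and HK, so all were positive. Whether same-numbered fetuses shared a ewe was not tested, and the arrays were not treated as paired. The exact tests, and limma without replicate number as a block, count such fetuses as independent.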

Additional observations from a re-analysis of the deposited data

Results flagged for a closer look

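In 87 groups of 4 or 5 arrays of the named reporters and genes, 5 held an array far from the others of its group. Chance flags about 1 in 20 groups. EPAS1-1 was −5.78 on HC4, where the other HC arrays lay between −5.14 and −4.88. EPAS1-2 was −4.84 on HK3, with the other HK arrays between −5.37 and −5.31. EPAS1-4 was −4.86 on NK2, with the other NK arrays between −5.91 and −5.74. HIF1A was −3.11 on HC5, with the others between −2.55 and −2.38, and IGF1 was −4.95 on HC5, with the others between −4.29 and −4.19.

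ARNT-1 stood on opposite sides of normoxia with and without ketamine: every HK array was above the NK mean, by 0.29 on average, apart in sign from HC, where every array was below the NC mean, at −0.54 on average. With normexp both were above 0, at 0.27 for HK minus NK and 0.94 for HC minus NC. With the deposited values they were 0.010 and −0.024. A gene chosen for lower levels in NK than in NC tends to be high in HK minus NK and low in HC minus NC. The difference between HK minus NK and HC minus NC was not tested, because it contains the NK and NC levels by which the genes were chosen.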

How the results depend on the processing

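Normexp background correction changed most. With it HC minus NC was 0.94 for ARNT-1, 0.87 for AHR-1 and 0.70 for CLOCK, hypoxia averaged over ketamine was 0.52 for AHR-1 and 0.54 for KDR, and NK minus NC was 0.82, 0.76 and 0.84 for ARNT-1, ARNT-2 and AHR-1, all of them negative in the fit reported. It moved the median of all probes to 0.34 in HC minus NC and 0.19 in the averaged comparison. The probes past the criterion became 92 in HK minus HC, 468 averaged, 585 in HC minus NC and 73 in HK minus NK, with 0 reporters in each. Reporters lower in NK minus NC became 0, exact tests under 0.05 became 0, and the median r between reporters 0.995. The highest local background of a spot was 65531 on HC1 and 51474 on NK1. The cause was not tested.

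With local background limited in normexp, HK minus HC had 913 probes and 2 reporters, and HC minus NC had 1594 probes and 2 reporters. The averaged comparison and HK minus NK had 0 reporters. The median of all probes in HC minus NC was −0.064, and the ARNT-1 and AHR-1 calls kept their signs. The share of higher calls was then 83.6% against 60.4% in HK minus HC and 26.9% against 42% in HC minus NC, where plain normexp gave 53.2%, and in the averaged comparison plain normexp gave 56% against 45.7%. The deposited values gave 0 reporters in HK minus HC, averaged and HK minus NK, and 1 in HC minus NC. For HK minus HC, the reporters were 2 with slide as a block, 2 with array weights (964 probes) and 0 with the trended prior. For HK minus NK they were 0 with quantile normalization, the trended prior, or only the groups compared. The causes were not tested.

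With the replicate number as a block, HK minus HC had 1055 probes and HK minus NK 1068, with 0 reporters in the latter, and the block changed no other reporter call.

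Leaving out each array gave 409 to 1071 probes and 0 to 2 reporters in HK minus HC, 1215 to 1770 and 1 to 2 averaged, 956 to 1633 and 2 to 4 in HC minus NC, and 497 to 815 and 0 to 1 in HK minus NK. It gave 4 to 6 reporters lower in NK minus NC, 2 to 4 exact tests under 0.05 and a median r of 0.238 to 0.381. For the exact tests every alternative, and for the correlations leaving out arrays, was chosen after seeing the data. AHR-1 in HC minus NC kept its sign and the criterion in every alternative with a test other than normexp. ARNT-1 in HK minus HC lost the criterion in 4 alternatives, and HIF1A in 2. Averaged over ketamine, CITED2, SLC2A3 and KDR each lost it in 1 alternative and IGFBP1 in 2, beside the reversal of KDR with normexp. All 8 reporters are dim, and most AHR-2 spots were not marked well above background, which limits every reporter value here.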
